A study of Mus musculus with 9 samples.

Results

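The Hoxb cluster and its antisense transcript Hoxb5os were described in mouse bone marrow cells transduced with NRASG12D, with NUP98-NSD1 or with both. The 10 members, Hoxb1 to Hoxb9 and Hoxb5os, were taken by gene name from 55274 gene identifiers, and they were chosen because their levels differed between these groups. Their levels across the 3 groups are therefore given as a description, without a test. An SE given for a member comes from the limma fit described below, which draws on the spread of all tested genes. It is not read as a test, since the members were chosen by their levels. RNA was sequenced from 9 cultures, 3 per group, and a level is an FPKM, the fragments of a gene divided by its transcript length and by the size of the library. All cultures came from the bone marrow of female C57BL/6J mice aged 6 to 8 weeks, which was harvested 4 days after 5-fluorouracil at 150 mg/kg, an agent that kills dividing cells. The cells were stimulated for 48 h with 10 ng/ml human IL-6, 6 ng/ml mouse IL-3 and 20 ng/ml mouse SCF before retroviral transduction. NRASG12D, an oncogenic form of the signalling GTPase NRAS, was carried by an MSCV vector with BFP, and NUP98-NSD1, a leukaemia fusion of a nuclear pore protein with a histone methyltransferase, by an MSCV vector with GFP. NRASG12D cells thus received NRASG12D alone, NUP98-NSD1 cells the fusion alone and NUP98-NSD1+NRASG12D cells both vectors. Cells were sorted for their fluorochrome and expanded. Every group carried a retroviral vector and grew in the same cytokines, and no cells without an oncogene were analysed here. The labels do not say whether the 3 libraries of a group came from separate transductions, so the spread between them may be technical.

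Hox genes encode homeodomain transcription factors that lie in clusters and set position along the body axis. In the bone marrow, many of them are active in stem and progenitor cells and are turned off as the cells mature, and NUP98 fusions and MLL fusions are known to keep Hox genes active in leukaemia. MLL, menin and the NSD enzymes maintain active Hox chromatin, Polycomb complexes silence it, and retinoic acid receptors act at the end of the cluster that holds Hoxb1.

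On the GRCm38 build the members lie on chromosome 11 between 96271457 and 96368256, a stretch of 96.8 kb that begins with Hoxb9 and ends with Hoxb1. The 9 coding members are on the plus strand. Hoxb13, a further Hoxb gene 74010 bases beyond Hoxb9, is no member. Hoxb5os is an antisense RNA on the minus strand, from 96291024 to 96306910, and its gene body covers Hoxb6 and Hoxb5. RefSeq promoter sequences of GRCm38.p6 were at hand for Hoxb8, Hoxb4 and Hoxb1. They are shown because the 3 genes behaved differently, Hoxb4 being detected in all groups, Hoxb8 high in a single library and Hoxb1 close to the detection limit. Each line gives the 250 bases before the start of the gene in RefSeq, which for Hoxb1 lies inside the gene as the files' annotation gives it, from 96365752, 5′ to 3′ on the plus strand, and capitals mark a CCAAT box (CCAAT or ATTGG) or a TATA box (TATAAA or TTTATA).
Hoxb8, chr11:96281655-96281904: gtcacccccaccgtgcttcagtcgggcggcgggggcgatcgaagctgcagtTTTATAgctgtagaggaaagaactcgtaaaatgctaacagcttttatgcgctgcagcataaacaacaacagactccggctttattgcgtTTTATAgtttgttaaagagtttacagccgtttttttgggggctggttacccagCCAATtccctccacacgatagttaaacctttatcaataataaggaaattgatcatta
Hoxb4, chr11:96318017-96318266: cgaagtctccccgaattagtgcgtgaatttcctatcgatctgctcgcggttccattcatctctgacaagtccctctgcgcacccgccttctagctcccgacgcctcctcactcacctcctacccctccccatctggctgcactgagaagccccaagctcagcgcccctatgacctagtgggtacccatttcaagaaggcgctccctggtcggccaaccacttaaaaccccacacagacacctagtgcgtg
Hoxb1, chr11:96365508-96365757: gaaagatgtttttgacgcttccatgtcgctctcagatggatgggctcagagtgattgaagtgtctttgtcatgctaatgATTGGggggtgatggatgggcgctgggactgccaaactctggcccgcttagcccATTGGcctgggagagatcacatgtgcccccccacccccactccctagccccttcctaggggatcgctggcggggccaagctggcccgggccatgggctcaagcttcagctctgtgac

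The Hoxb8 window held 1 CCAAT box and 2 TATA boxes, the Hoxb1 window held 2 CCAAT boxes, and the Hoxb4 window held none of these letters. An E-box (CACGTG) was in none of the 3 windows. Searched on both strands without overlap between the motifs, a CCAAT box was present in 33.8%, a TATA box in 12.4% and an E-box in 6.02% of 32851 promoters of the same length. A match describes letters only. The Hoxb8, Hoxb4 and Hoxb1 windows held 12, 14 and 7 CpG, with 44.4%, 58.0% and 59.2% GC, against medians of 6 CpG and 52.4% GC over all promoters. Of all promoters, 68.5%, 72.7% and 57.0% had as many CpG or fewer.

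The libraries held an estimated 22500000 to 35400000 fragments. Nras, which checks the labels, was between 348 and 479 FPKM in NRASG12D cells, between 47.7 and 51.2 in NUP98-NSD1 cells and between 245 and 701 in NUP98-NSD1+NRASG12D cells. Nup98 was 10.3 ± 1.07, 18.6 ± 0.399 and 15.9 ± 4.16 FPKM (SD, n = 3) in the same order, and Nsd1 was between 9.98 and 16.2 in all libraries. The 11 mast cell markers summed to 30047 to 32689 FPKM in NRASG12D cells and to 26847 to 31873 in NUP98-NSD1 cells. In NUP98-NSD1+NRASG12D cells they summed to 745 to 4347. Cpa3 was listed at 0 in every NRASG12D library and at 13452 ± 908 (SD, n = 3) in NUP98-NSD1 cells. Whether this 0 was a measured absence or a value that was not computed was not checked. Without Cpa3, a sum added after the values were seen, the other 10 mast cell markers gave 30047 to 32689, 13687 to 17495 and 465 to 2526 FPKM, and 8 of the 10 had a lower mean in NUP98-NSD1 than in NRASG12D cells. The 12 granulocyte markers summed to 29.7 to 37.2, 1752 to 6228 and 9001 to 19655 FPKM, with Ltf and Camp at 0 in NRASG12D cells. The 8 monocyte and macrophage markers summed to 44.2 to 59.4, 495 to 930 and 1789 to 4467 FPKM, and the 8 stem and progenitor markers to 1799 to 2209, 906 to 1507 and 191 to 857 FPKM. The stem and progenitor sum was mostly Ly6a, with means of 1642, 719 and 431 FPKM, and 6 of these 8 markers, among them Cd34 with 327 and 441 FPKM, had a higher mean in NUP98-NSD1 than in NRASG12D cells. The 5 erythroid markers summed to 3.16 to 5.96, 23.3 to 49.4 and 3.31 to 30.7 FPKM, the 5 megakaryocyte markers to 479 to 563, 242 to 301 and 81.1 to 1242, and the 4 T cell markers to 0.0336 to 0.286, 1.00 to 2.24 and 0.982 to 7.37. In both groups with the fusion, 4 of the 5 megakaryocyte markers had a higher mean than in NRASG12D cells. The other was Itga2b, with means of 510, 230 and 22.1 FPKM, against 1.56, 28.3 and 444 for Pf4. Of the 4 T cell markers, 2 had a higher mean in NUP98-NSD1 than in NRASG12D cells, and 3 in NUP98-NSD1+NRASG12D cells. Lck was most of their sum in each library with the fusion except NUP98-NSD1+NRASG12D replicate 3, where Bcl11b had 5.67 FPKM. The 4 B cell markers stayed under 1 FPKM in sum and the 5 stromal and endothelial markers did so too. The part of these differences in cell types in the Hoxb levels was not tested. In bulk RNA, fewer cells that express a gene and less RNA per cell cannot be told apart. NUP98-NSD1 replicate 3 stood nearer to NRASG12D cells than the other libraries of its group, with 31473 identifiers above 0 against 26259 and 27191, and NUP98-NSD1+NRASG12D replicate 3 had the fewest, 22732.

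In NRASG12D cells the whole cluster was close to silent. The 10 members summed to 0.412, 0.655 and 1.10 FPKM in the 3 libraries, and none of them reached 1 FPKM in any. Hoxb4 and Hoxb2 were the highest, with 0.273 ± 0.138 and 0.238 ± 0.195 FPKM (SD, n = 3), and their ranges overlapped. The other 7 coding genes had means of 0.0151 to 0.0433 FPKM, which amounted to at most 5 fragments in a library. Hoxb5os was listed at 0 in all 3.

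With NUP98-NSD1, alone or with NRASG12D, a part of the cluster was expressed. The sum over the members was 38.7, 43.4 and 29.3 FPKM in NUP98-NSD1 cells and 40.0, 22.5 and 31.5 FPKM in NUP98-NSD1+NRASG12D cells. On the scale of log2(summed FPKM + 1), the difference from NRASG12D cells was 4.47 for NUP98-NSD1 cells and 4.21 for NUP98-NSD1+NRASG12D cells, and it was -0.26 between both. Every library with the fusion lay above every library without it. The level was carried by Hoxb5os, Hoxb5, Hoxb2 and Hoxb4, the 4 members with at least 1 FPKM in at least 3 libraries, which was the filter for testing, while 6 members did not pass it.

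**Figure D1:**
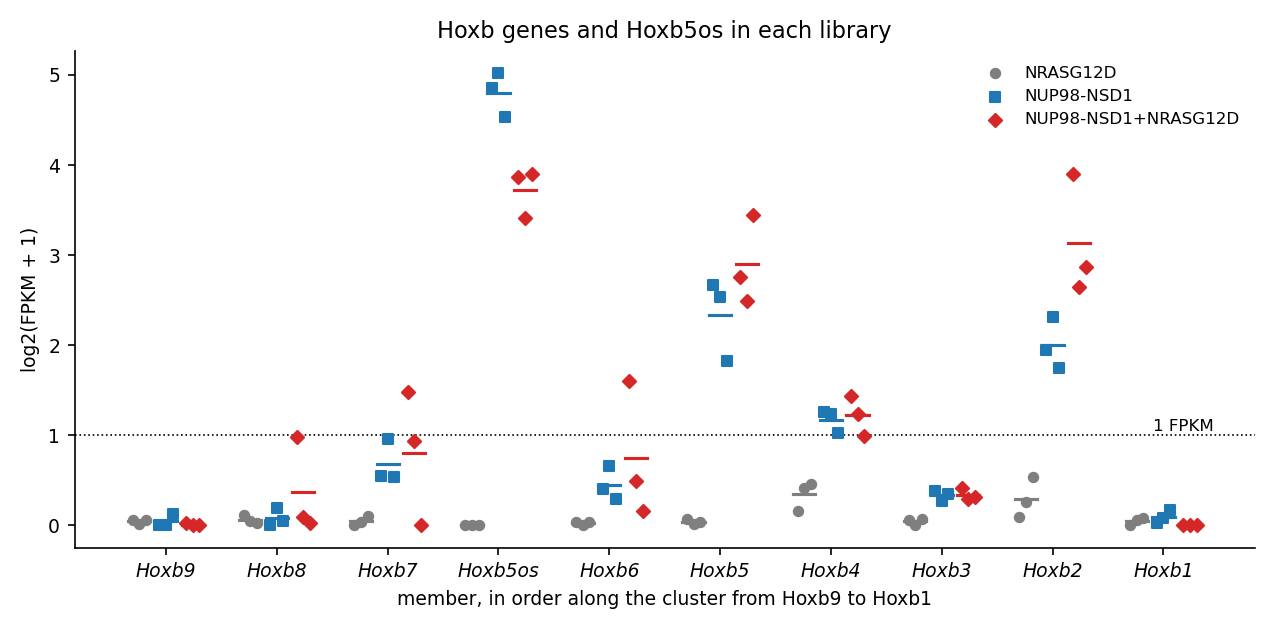
Levels of the 10 members in each library, as log2(FPKM + 1), in order along the cluster. Points are libraries, 3 per group, short lines are group means, and the dotted line marks 1 FPKM. Hoxb5os, Hoxb5 and Hoxb2 stand above 1 FPKM in all 6 libraries with the fusion and below it in all 3 NRASG12D libraries, whereas Hoxb9 and Hoxb1 stay near 0 in all groups.

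Of the 10 members, 7 were higher in all NUP98-NSD1 libraries than in all NRASG12D libraries, and 3 overlapped (Hoxb1, Hoxb8 and Hoxb9). The members were chosen on this contrast, so the count is set beside the background without reading anything from it. Among all identifiers above 0 in these 6 libraries, 20.3% were higher without overlap, and among the 13493 tested genes 50.7% were. For NUP98-NSD1+NRASG12D against NRASG12D cells the count was 6 of 10, with 4 overlapping, beside 16.5% of identifiers and 38.7% of tested genes. Hoxb7, listed at 0 in NUP98-NSD1+NRASG12D replicate 3, made the difference between both counts. The 2 comparisons share their NRASG12D libraries.

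Hoxb5os had the highest mean of the cluster in both groups with the fusion. Its levels were 28, 31.4 and 22.2 FPKM in NUP98-NSD1 cells and 13.5, 9.67 and 13.9 FPKM in NUP98-NSD1+NRASG12D cells, with an estimated 318 to 494 and 141 to 228 fragments. In NUP98-NSD1+NRASG12D cells Hoxb5 and Hoxb2 had more fragments, an estimated 315 to 629 and 401 to 1228. The rank of Hoxb5os in that group thus rests on division by transcript length. The 3 groups did not overlap in Hoxb5os, and the order was NUP98-NSD1, NUP98-NSD1+NRASG12D, NRASG12D. In the NRASG12D library where the floor of 3 fragments was highest, this floor was 0.224 FPKM, worked out with the full transcript length. The mean of Hoxb5os was 122 times this floor in NUP98-NSD1 cells and 55.3 times in NUP98-NSD1+NRASG12D cells. The lowest library of each group was still at 99.3 and 43.2 times this floor, which covers counting error only. Whether the listed 0 of NRASG12D cells was a measured value was not checked, so these are no lower bounds of a fold change. Between both groups with the fusion, Hoxb5os differed by -1.08 ± 0.21 (SE) in log2(FPKM + 1), lower in NUP98-NSD1+NRASG12D cells.

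Hoxb5, whose product marks long-term haematopoietic stem cells, lies opposite to Hoxb5os. In NRASG12D cells it had 0.0455, 0.0102 and 0.0244 FPKM, an estimated 3, 1 and 2 fragments. It reached 5.33, 4.79 and 2.54 FPKM in NUP98-NSD1 cells and 5.77, 4.64 and 9.91 FPKM in NUP98-NSD1+NRASG12D cells. Both groups with the fusion were above NRASG12D cells in every library, by 2.30 ± 0.23 and 2.86 ± 0.26 (SE) in log2(FPKM + 1). They overlapped with each other, with a difference of 0.56 ± 0.33.

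The sense and antisense transcripts of this locus thus differed in proportion between both groups with the fusion. The ratio of Hoxb5os to Hoxb5, in FPKM, was 5.25, 6.55 and 8.75 in NUP98-NSD1 cells and 2.35, 2.08 and 1.41 in NUP98-NSD1+NRASG12D cells. The lowest ratio of NUP98-NSD1 cells was above the highest of NUP98-NSD1+NRASG12D cells. The ratio is taken within a library, so scaling between libraries does not enter it. Counting by strand is not given in the sources used here, and 100 exon bases are shared by both genes, 14.4% of the exon bases of Hoxb5os and 3.59% of those of Hoxb5, where the transcripts cannot be told apart without strand.

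**Figure D2:**
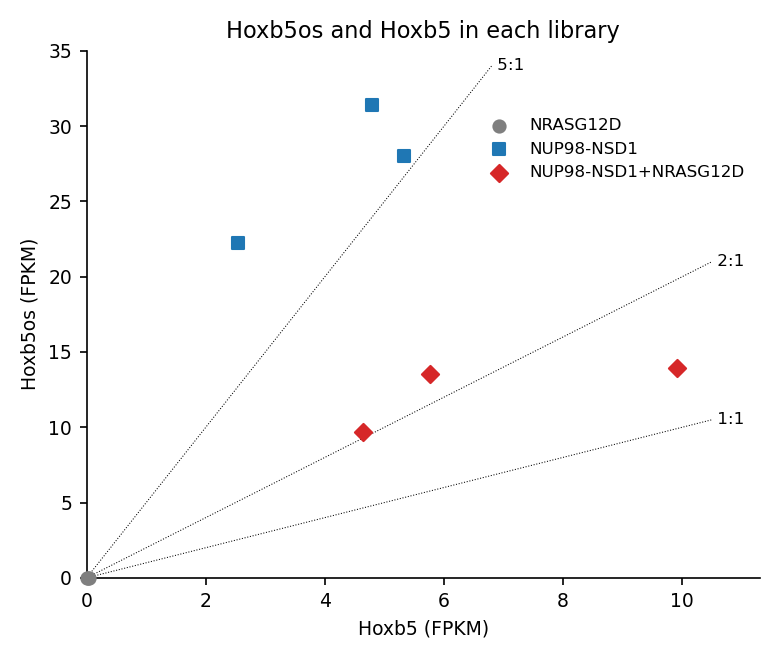
Level of Hoxb5os against that of Hoxb5 in each library, both in FPKM on linear axes. Each point is a library, and dotted lines mark ratios of 1, 2 and 5. NUP98-NSD1 libraries lie above the line for 5, NUP98-NSD1+NRASG12D libraries between 1.41 and 2.35, and NRASG12D libraries at the origin.

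Hoxb2, which patterns the hindbrain and is also found in blood progenitors, was the coding member that differed in level between all 3 groups without overlap. Its levels were 0.0668, 0.198 and 0.451 FPKM in NRASG12D cells, 2.86, 3.97 and 2.36 in NUP98-NSD1 cells and 13.9, 5.24 and 6.27 in NUP98-NSD1+NRASG12D cells. The means were 12.8 and 35.5 times that of NRASG12D cells. The mean in NUP98-NSD1+NRASG12D cells was 2.77 times that in NUP98-NSD1 cells, a difference of 1.13 ± 0.35 (SE) in log2(FPKM + 1). Replicate 1 of NUP98-NSD1+NRASG12D was high, and without it the mean fell from 8.47 to 5.76 FPKM, which was still above each NUP98-NSD1 library. Of the exon bases of Hoxb2, 27.3% are also in Hoxb3os on the opposite strand.

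Hoxb4, a factor known to expand haematopoietic stem cells when it is overexpressed, was detected in all libraries. It had 0.115, 0.335 and 0.369 FPKM in NRASG12D cells, 1.38, 1.35 and 1.04 in NUP98-NSD1 cells and 1.70, 1.36 and 0.986 in NUP98-NSD1+NRASG12D cells. The groups with the fusion were above NRASG12D cells without overlap, by 4.59 and 4.93 times in the means and by 0.83 ± 0.15 and 0.88 ± 0.19 (SE) in log2(FPKM + 1). Between them the difference was 0.05 ± 0.18, with overlapping ranges.

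Hoxb6, Hoxb7 and Hoxb3 were low and were higher with the fusion in most libraries. Hoxb7, which can support the growth of myeloid progenitors, had 0.461, 0.943 and 0.453 FPKM in NUP98-NSD1 cells and 1.78, 0.905 and 0 in NUP98-NSD1+NRASG12D cells, against at most 0.0745 in NRASG12D cells. Hoxb6, which lies within the span of the Hoxb5os gene, had 0.322, 0.578 and 0.219 FPKM in NUP98-NSD1 cells and 2.02, 0.405 and 0.115 in NUP98-NSD1+NRASG12D cells, against at most 0.0234. Both genes were highest in NUP98-NSD1+NRASG12D replicate 1 and lowest among the libraries with the fusion in replicate 3 of the same group. Without replicate 1, their means in that group were 0.453 and 0.260 FPKM, below the 0.619 and 0.373 FPKM of NUP98-NSD1 cells.

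Hoxb3, which acts with Hoxb4 in stem cells, was even across libraries with the fusion. It had 0.297, 0.208 and 0.269 FPKM in NUP98-NSD1 cells, 0.334, 0.223 and 0.239 in NUP98-NSD1+NRASG12D cells and at most 0.0480 in NRASG12D cells. With 17 to 30 fragments a library, it was above the floor of 3 fragments in all 6 libraries with the fusion. Of its exon bases, 52.9% are shared with Hoxb3os.

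Hoxb8, known for blocking myeloid differentiation together with IL-3, was detected clearly in a single library. NUP98-NSD1+NRASG12D replicate 1 had 0.973 FPKM, an estimated 72 fragments, and the other two libraries of the group 0.0631 and 0.0168 FPKM. The NUP98-NSD1 libraries had 0, 0.141 and 0.0320 FPKM and the NRASG12D libraries 0.0801, 0.0326 and 0.0171. All 3 groups overlapped, and without replicate 1 the mean of NUP98-NSD1+NRASG12D cells was 0.0399 FPKM. This library was also the highest of all for Hoxb2, Hoxb4, Hoxb6, Hoxb7 and Hoxb3.

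Hoxb9 and Hoxb1, at the 2 ends of the stretch that the members cover, stayed near the level that 3 fragments give. Hoxb9, a posterior Hox gene of the trunk, was between 0 and 0.0938 FPKM, and at most 6 fragments stood behind it. Beyond Hoxb9, Hoxb13 had 0.955 FPKM in NUP98-NSD1+NRASG12D replicate 3 and at most 0.0387 FPKM in the other libraries. It did not pass the filter. Hoxb1, which specifies a hindbrain segment, was between 0 and 0.126 FPKM, with at most 6 fragments, and was listed at 0 in all NUP98-NSD1+NRASG12D libraries. Its groups did not overlap between NUP98-NSD1 and NUP98-NSD1+NRASG12D cells, but the 3 libraries of NUP98-NSD1 held 1, 3 and 6 fragments, so a difference was hardly detectable at this depth.

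The order of the mean levels was Hoxb5os, Hoxb5, Hoxb2, Hoxb4, Hoxb7, Hoxb6, Hoxb3, Hoxb1, Hoxb8 and Hoxb9 in NUP98-NSD1 cells. Of the neighbours in this order, Hoxb5 and Hoxb2 overlapped in range, as did Hoxb7, Hoxb6 and Hoxb3 in turn and the last 3 genes. In NUP98-NSD1+NRASG12D cells Hoxb2 stood before Hoxb5, but their ranges overlapped, and so did those of Hoxb5os and Hoxb2. The high members were not neighbours on the chromosome in every case, since Hoxb3 lies between Hoxb4 and Hoxb2 and Hoxb6 between Hoxb7 and Hoxb5.

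Among the coding members alone, the sum over Hoxb1 to Hoxb9 was 10.7, 12 and 7.13 FPKM in NUP98-NSD1 cells and 26.5, 12.8 and 17.5 FPKM in NUP98-NSD1+NRASG12D cells. The groups did not overlap, although the highest NUP98-NSD1 library was close to the lowest NUP98-NSD1+NRASG12D library. With Hoxb5os included, the order of the group means turned, to 37.1 ± 7.17 and 31.3 ± 8.77 FPKM (SD, n = 3), and the groups overlapped. Hoxb2 made up 31.0% ± 3.62 of the coding sum in NUP98-NSD1 cells and 43.0% ± 8.55 in NUP98-NSD1+NRASG12D cells, Hoxb5 41.8% ± 7.40 and 38.1% ± 17.4, and Hoxb4 12.9% ± 1.67 and 7.55% ± 2.68 (SD, n = 3). The ratio of Hoxb2 to Hoxb4, at 2.07, 2.95 and 2.28 in NUP98-NSD1 cells, was higher in each NUP98-NSD1+NRASG12D library, at 8.19, 3.85 and 6.36.

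**Figure D3:**
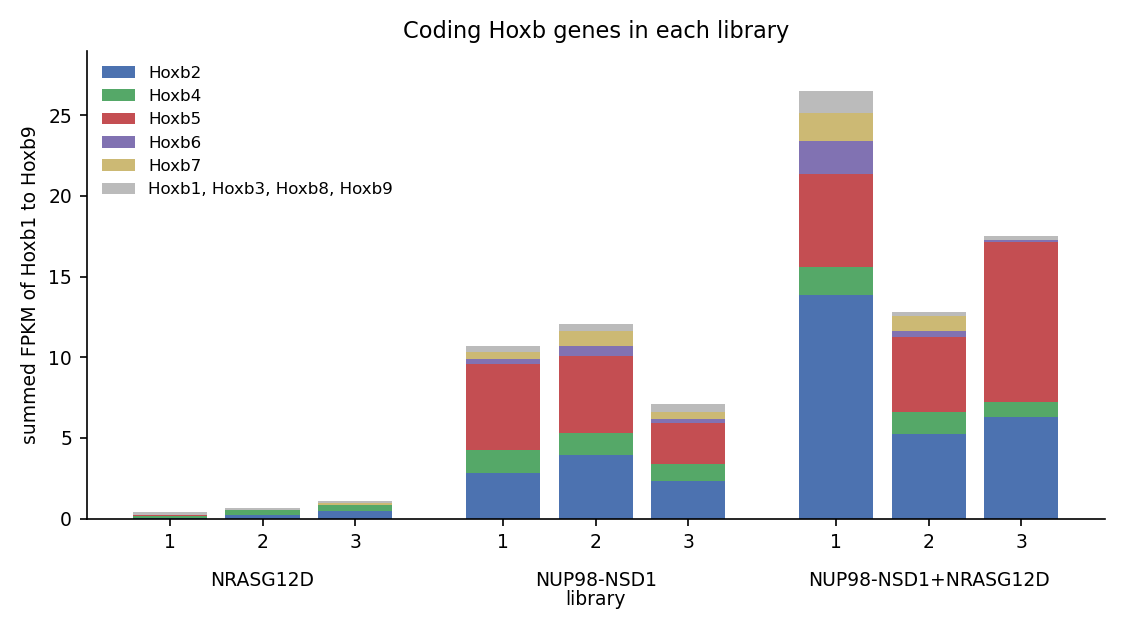
Summed level of Hoxb1 to Hoxb9 in each library, in FPKM, with each bar divided by gene. Bars are single libraries, numbered by replicate within a group. The NUP98-NSD1+NRASG12D bars, between 12.8 and 26.5, are taller than the NUP98-NSD1 bars, between 7.13 and 12, and the NRASG12D bars reach at most 1.10.

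When NUP98-NSD1+NRASG12D cells were set against NUP98-NSD1 cells, 1 member was higher without overlap (Hoxb2), 2 were lower (Hoxb5os and Hoxb1) and 7 overlapped. Over all identifiers above 0 in these 6 libraries, 5.96% were higher and 11.1% lower without overlap, and over the tested genes 11.6% and 19.8%. With 1 of 10 and 2 of 10, the members were near this background.

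NUP98-NSD1 replicate 3, the library nearest to NRASG12D cells, was the lowest of its group for Hoxb5os, Hoxb5, Hoxb2, Hoxb4, Hoxb7 and Hoxb6. Without it, the group means rose to 29.7 FPKM for Hoxb5os, 5.06 for Hoxb5 and 3.41 for Hoxb2. The directions against both other groups were the same for these 3 genes without it.

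The position of the cluster among its neighbours was examined with the genes within 500 kb. These were not chosen by their values and were tested with limma on log2(FPKM + 1), with p-values adjusted over all 13493 tested genes. Of the 40 flanking genes, which include Hoxb13, 13 passed the filter, among them the processed pseudogene Gm11539. In NUP98-NSD1 against NRASG12D cells, 4 of the 13 rose and 4 fell, beside 42.2% and 9.98% of all tested genes. Their median difference was 0.04, against 0.27 for all tested genes. In NUP98-NSD1+NRASG12D against NRASG12D cells, 2 rose and 5 fell, beside 24.2% and 14.1% of tested genes, with a median of 0.15 against 0.23. When both vectors were compared with NUP98-NSD1 alone, 2 fell and 0 rose by limma, beside 6.31% and 2.30% of tested genes. At an unadjusted p under 0.05, 4 were lower and 0 higher, beside 15.2% and 9.40% of tested genes. After scaling by the median ratio, which removes the shift of the median of all genes, 2 rose and 5 fell in the first comparison, 1 rose and 5 fell in the second, and 1 fell in the third. The 7 calls of the second comparison became 4 without any 1 of the NRASG12D replicates 1, 2 and 3, and the 2 calls of the third became 1 without any 1 NUP98-NSD1 library or without NUP98-NSD1+NRASG12D replicate 3, and 4 without NUP98-NSD1+NRASG12D replicate 1.

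The nearest tested gene on the Hoxb9 side was Gm11539, 22268 bases away, which is annotated as a processed pseudogene. Whether its reads arose at this place was not tested. Gm11539 rose from 8.12 ± 0.618 to 12.6 ± 1.22 FPKM (SD, n = 3) in NUP98-NSD1 cells (difference 0.57, limma adjusted p = 0.0052). It was called in 9 of 12 alternatives. The nearest on the Hoxb1 side was Skap1, an adaptor of T cell and mast cell adhesion signalling, 96337 bases away. Skap1 moved opposite to the cluster, from 10.4, 3.65 and 4.23 FPKM in NRASG12D cells to 1.07, 0.633 and 1.56 in NUP98-NSD1 cells and 0.292, 0.668 and 0.305 in NUP98-NSD1+NRASG12D cells. It fell, with differences of -1.67 and -2.21 (limma adjusted p = 0.0075 and 0.0033).

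Farther out, Atp5g1, a subunit of the mitochondrial ATP synthase, rose by 0.91 in NUP98-NSD1 cells and 0.98 in NUP98-NSD1+NRASG12D cells against NRASG12D cells (limma adjusted p = 0.0021 and 0.024). Cbx1, a heterochromatin protein, and Snf8, of the endosomal sorting machinery, rose in NUP98-NSD1 cells by 0.81 and 0.74 (limma adjusted p = 0.0030 and 0.020). Abi3 and Gngt2, neighbours more than 400 kb from Hoxb9 that encode an actin regulator and a G protein subunit, fell together in both comparisons with NRASG12D cells. Abi3 went from 173 ± 8.98 to 108 ± 21.9 and 36.3 ± 20.6 FPKM, and Gngt2 from 202 ± 16.8 to 117 ± 14.1 and 58.4 ± 15.9 FPKM (SD, n = 3). Gngt2 also fell between both groups with the fusion, by 1.02 (limma adjusted p = 0.046), and for Abi3 this difference was -1.74 with adjusted p = 0.079 by limma. The call of Snf8 was lost without NUP98-NSD1 replicate 2 (limma adjusted p = 0.073) and also after scaling by the median ratio. That of Atp5g1 in NUP98-NSD1+NRASG12D cells was lost without any 1 NRASG12D library or NUP98-NSD1+NRASG12D replicate 3 (limma adjusted p up to 0.096). That of Gngt2 between both groups with the fusion was lost without any 1 NUP98-NSD1 library or NUP98-NSD1+NRASG12D replicate 3 (limma adjusted p up to 0.17). This call of Gngt2 was also lost after scaling by the median ratio.

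Copz2, a coat protein of Golgi vesicles at the far Hoxb1 side, was 27.4 ± 8.90 FPKM in NRASG12D cells, 24.4 ± 6.40 in NUP98-NSD1 cells and 2.36 ± 0.674 in NUP98-NSD1+NRASG12D cells (SD, n = 3). It fell in NUP98-NSD1+NRASG12D cells against both other groups, with differences of -3.04 and -2.91 (limma adjusted p = 4.2e-04 and 0.0054). Ube2z, a ubiquitin-conjugating enzyme, fell against NRASG12D cells, with differences of -0.27 and -0.49, each with a limma adjusted p of 0.0499. Phospho1, a phosphatase of bone mineralization, rose in NUP98-NSD1+NRASG12D cells by 2.02 (limma adjusted p = 0.049), with 3.37, 7.05 and 29.4 FPKM. For Ube2z the calls were lost without any 1 library of the first comparison (limma adjusted p up to 0.16) and in the second without any 1 library except NUP98-NSD1+NRASG12D replicate 2 (up to 0.18). The call of Phospho1 was lost without any 1 NRASG12D library or NUP98-NSD1+NRASG12D replicate 2 (up to 0.14).

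**Figure D4:**
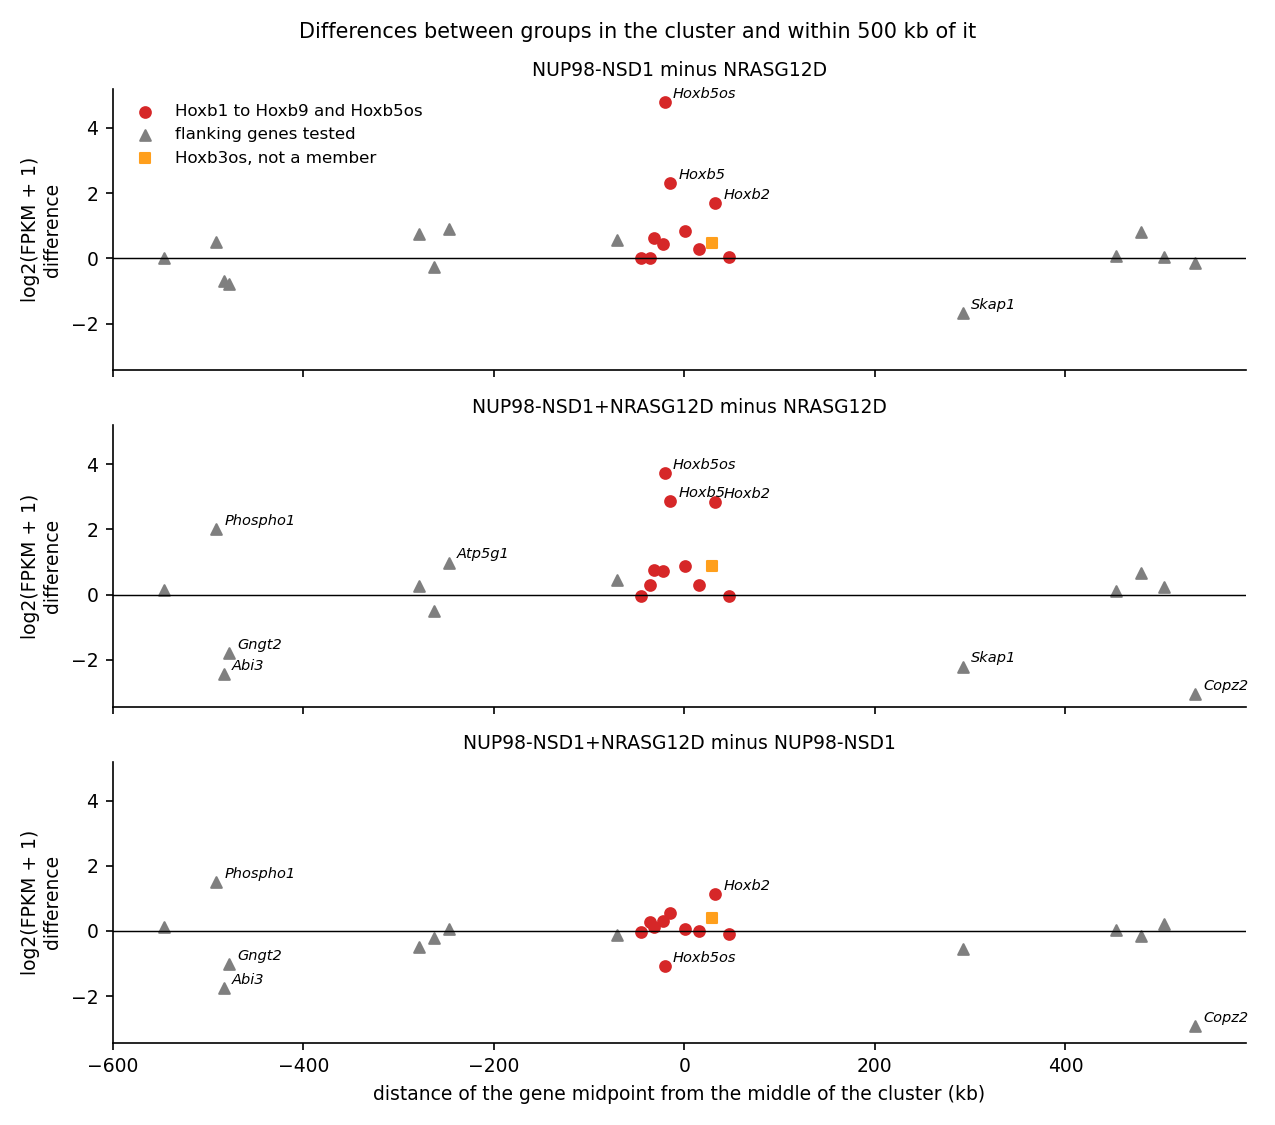
Difference in log2(FPKM + 1) between groups for the members, the 13 tested flanking genes and Hoxb3os, against the distance of the gene midpoint from the middle of the cluster in kb. Each panel is a comparison and each point a gene, with the group means of 3 libraries behind it. Hoxb5os, Hoxb5 and Hoxb2 stand above the flanking genes in both comparisons with NRASG12D cells, while Skap1 lies at -1.67 and -2.21.

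Inside the cluster, Hoxb3os, an antisense RNA that shares 76.2% of its exon bases with Hoxb3 and Hoxb2, is no member and was added after its values were seen, so it is described without a test. It had 0.0962 ± 0.101 FPKM in NRASG12D cells, 0.572 ± 0.455 in NUP98-NSD1 cells and 1.03 ± 0.252 in NUP98-NSD1+NRASG12D cells (SD, n = 3). Single libraries had 0.112 to 1.02 FPKM in NUP98-NSD1 cells, which overlapped with NRASG12D cells, and 0.736 to 1.19 in NUP98-NSD1+NRASG12D cells, which did not. Without strand, reads of Hoxb3os, Hoxb3 and Hoxb2 cannot be told apart where they overlap. The miRNA gene Mir10a was listed at 0 in all libraries, and libraries of this kind do not capture mature miRNAs.

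The regulators of the cluster were taken from 3 lists of known factors, 61 genes in all, of which 54 were tested. Against NRASG12D cells, 25 rose and 2 fell in NUP98-NSD1 cells, and 13 rose and 7 fell in NUP98-NSD1+NRASG12D cells. The shares that rose, among 54, were near the 42.2% and 24.2% of all tested genes. Those that fell stand beside 9.98% and 14.1% of tested genes. After scaling by the median ratio, 8 rose and 11 fell in both comparisons. Between both groups with the fusion, 1 rose and 3 fell, beside 2.30% and 6.31% of tested genes. The 27 calls of NUP98-NSD1 cells became 17 and 16 without NUP98-NSD1 replicates 1 and 2. The 20 calls of NUP98-NSD1+NRASG12D against NRASG12D cells became 9, 13 and 9 without NRASG12D replicates 1, 2 and 3 and 13 without NUP98-NSD1+NRASG12D replicate 3. The 4 calls between both groups with the fusion became 1 without any 1 of 4 libraries and 9 without NUP98-NSD1+NRASG12D replicate 1.

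Of 20 tested activators of the MLL, menin and NSD group, 6 rose and 0 fell by limma in NUP98-NSD1 cells. The shares over all tested genes were 42.2% and 9.98%. The median difference was 0.14 against 0.27 for all genes. At an unadjusted p under 0.05, 7 were higher and 1 lower, beside 47.4% and 12.1% of tested genes. Scaled by the median ratio, 1 rose and 7 fell. Dpy30, a shared subunit of the MLL complexes, went from 50.5 ± 13.5 to 121 ± 16.5 FPKM (SD, n = 3), a rise of 1.28 (limma adjusted p = 0.0033), and was called in all 12 alternatives. Mllt10, a partner of the DOT1L methyltransferase, Nsd2, a relative of NSD1, and Men1, which encodes menin, rose by 0.72, 0.53 and 0.46 (limma adjusted p = 0.0074, 0.0093 and 0.031). Their calls as higher were lost after scaling by the median ratio, where Dpy30 was the 1 activator that rose. Men1 was called in 3 of its 12 alternatives and was lost without any 1 library except NUP98-NSD1 replicate 3 (limma adjusted p up to 0.11). In NUP98-NSD1+NRASG12D against NRASG12D cells, 1 rose and 3 fell, beside 24.2% and 14.1% of tested genes. Kdm6a, which removes the Polycomb mark, was lowest in NUP98-NSD1+NRASG12D cells, at 17.8 ± 0.722 FPKM against 27.1 ± 1.66 in NUP98-NSD1 cells (difference -0.58, limma adjusted p = 0.048), and was called in 2 of 12 alternatives. That call was lost without any 1 library except NUP98-NSD1+NRASG12D replicate 1 (limma adjusted p up to 0.19).

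Of 17 Polycomb genes, 8 rose and 1 fell in NUP98-NSD1 cells, beside 42.2% and 9.98% of tested genes. The median was 0.33, and 3 rose and 1 fell after scaling by the median ratio. Cbx2, a reader of the Polycomb mark, went from 1.12 ± 0.186 to 2.85 ± 0.279 FPKM (SD, n = 3). Mtf2, Jarid2 and Eed, which belong to the complex that writes the mark, rose by 0.74, 0.69 and 0.67 (limma adjusted p = 0.0063, 0.025 and 0.0045). In NUP98-NSD1+NRASG12D against NRASG12D cells, 5 rose and 2 fell, beside 24.2% and 14.1% of tested genes. Jarid2 rose there by 1.48 (limma adjusted p = 0.0016), from 9.72 ± 1.48 to 29.1 ± 5.64 FPKM (SD, n = 3). Phc1, of the complex that binds the mark, fell between both groups with the fusion by 1.10 (limma adjusted p = 0.035) and was called in 6 of 12 alternatives. It was lost without any 1 NUP98-NSD1 library or NUP98-NSD1+NRASG12D replicate 3 (limma adjusted p up to 0.14), and Jarid2 in NUP98-NSD1 cells without replicate 1 or 2 of either group (up to 0.086). Over all 12 alternatives, the call of Jarid2 in NUP98-NSD1 cells was made in 3, with a limma adjusted p up to 0.137.

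Of 17 tested factors and cofactors, 11 rose and 1 fell in NUP98-NSD1 cells, beside 42.2% and 9.98% of tested genes. The median was 0.48, and 4 rose and 3 fell after scaling by the median ratio. The retinoic acid receptor Rara was the member of the lists that rose in all 3 comparisons. It had 5.08, 6.07 and 4.98 FPKM in NRASG12D cells, 19.5, 15.0 and 13.9 in NUP98-NSD1 cells and 29.1, 26.6 and 34.2 in NUP98-NSD1+NRASG12D cells. The groups did not overlap, and the rises were 1.42, 2.28 and 0.86 (limma adjusted p = 8.2e-04, 1.6e-04 and 0.037). The first 2 were called in all 12 alternatives and the last in 6, being lost without any 1 NUP98-NSD1 library or NUP98-NSD1+NRASG12D replicate 3 (limma adjusted p up to 0.16).

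Its partner receptor Rxrb rose by 1.09 and 1.42 against NRASG12D cells (limma adjusted p = 0.0044 and 0.0049), and Gmnn, which encodes geminin, a binder of Hox proteins and replication inhibitor, by 1.13 and 1.44 (limma adjusted p = 0.0056 and 0.013). Meis1, the cofactor best known in Hox-driven leukaemia, was 48.3 ± 1.80 FPKM in NRASG12D cells, 43.0 ± 5.55 in NUP98-NSD1 cells and 9.61 ± 1.64 in NUP98-NSD1+NRASG12D cells (SD, n = 3). It fell in NUP98-NSD1+NRASG12D cells with differences of -2.23 and -2.06 from the other two groups (limma adjusted p = 1.6e-04 and 0.0054), while Hoxb2 was highest there. In NUP98-NSD1+NRASG12D against NRASG12D cells 7 of the 17 rose and 2 fell, beside 24.2% and 14.1% of tested genes.

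**Figure D5:**
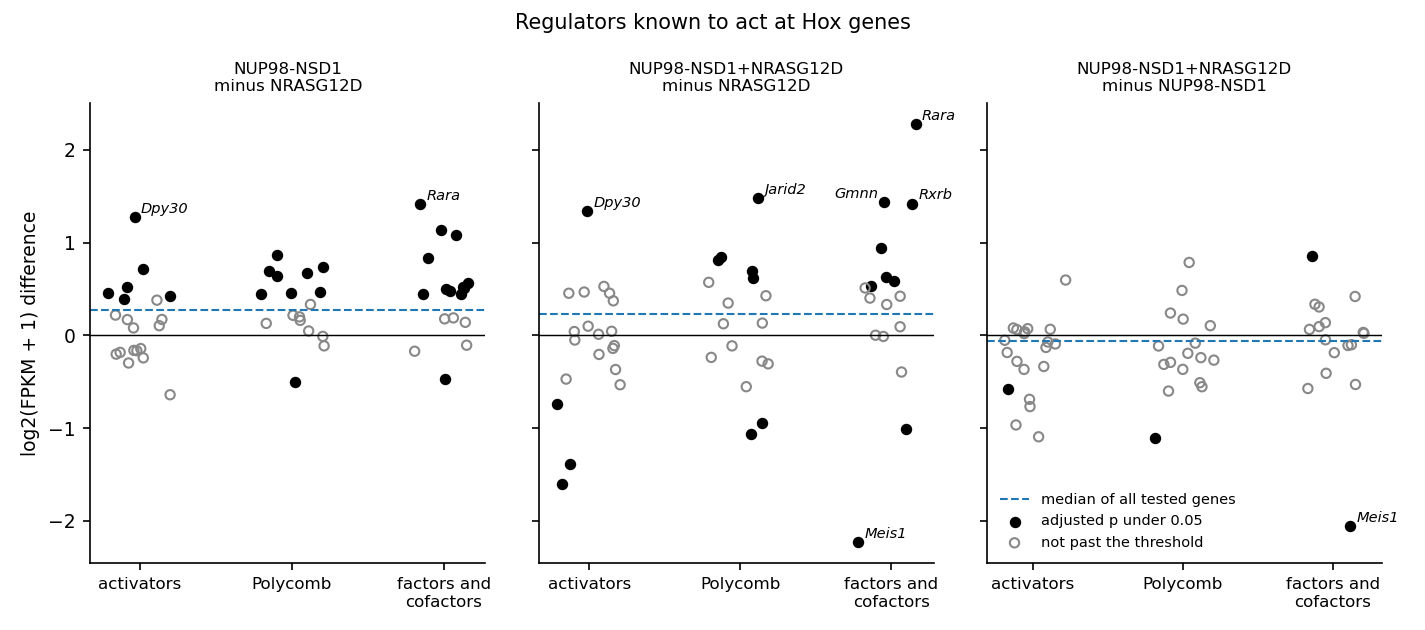
Difference in log2(FPKM + 1) between groups for 54 tested regulators in 3 lists. Each point is a gene, filled where the limma adjusted p is under 0.05, and the dashed line is the median of all tested genes. Rara stands at 1.42 and 2.28 in the first 2 panels, and Meis1 at -2.23 and -2.06 in the last 2.

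The genes most like the Hoxb members were found by the Pearson correlation over the 9 libraries with the mean standardised profile of the 4 members that passed the filter. Among the closest were Rasgrp2, Sgk3, Rgcc and Ctsg, with r between 0.994 and 0.995. They shared the libraries and the 3 groups with the members, and no test was made. Rasgrp2, an exchange factor of Rap GTPases, had at most 0.584 FPKM in NRASG12D cells, 69.2, 71.9 and 19.6 in NUP98-NSD1 cells and 178, 59.5 and 71.4 in NUP98-NSD1+NRASG12D cells. Ctsg, a protease of neutrophil granules, was between 21.5 and 27, between 373 and 702 and between 438 and 1048 FPKM. As for Hoxb2 and Hoxb5, their lowest value among the NUP98-NSD1 libraries was that of replicate 3. Over the alternatives, r of these 4 genes was between 0.984 and 0.998.

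Hoxa9, a gene of another Hox cluster known for its role in myeloid leukaemia, is given for scale. It had 0.0421 ± 0.0526, 47.7 ± 8.94 and 56.8 ± 18.4 FPKM (SD, n = 3), in the order NRASG12D, NUP98-NSD1, both vectors. Against NRASG12D cells its limma differences were 5.53 and 5.74. The study had already reported Hoxa9 as higher with the fusion in these data, so these differences are a description, not a test. Between both groups with the fusion the difference was 0.21 (limma adjusted p = 0.73). A single Hoxa gene was thus above the summed coding Hoxb level in every library with the fusion.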

How the data were processed

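RNA of 9 cultures was sequenced by the authors as paired reads of 50 bp. Per the labels, the submitters' processing notes name STAR 2.7.2a, Cufflinks 2.2.1 and GRCm38.p6, and the study's methods name GENCODE M22. The authors deposited FPKM in a Cufflinks gene table per library. Counting by strand is not given in the sources used here, and the fragment counts used in the study's own tests were not used here. Groups were taken from the labels. Exons, strands, gene types and transcript lengths were taken from GENCODE M21, which held 54882 of the 55274 gene identifiers. Shared exon bases, fragment estimates and floors rest on them.

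Values of the same identifier were summed. Whether a listed 0 was a measured value or one that was not computed was not checked. Fragments per library were estimated from the steps between low FPKM values, of which 82.5% to 84.9% lay on whole steps (tolerance 0.15), and the level of 3 fragments was taken as the floor, which covers counting error only. Genes were kept where 3 or more of the 9 libraries reached 1 FPKM, and were tested on log2(FPKM + 1) with limma 3.58.1 in R 4.3.3 (lmFit, eBayes with trend), each pair of groups on its 6 libraries, with Benjamini-Hochberg adjustment over 13493 genes and a threshold of 0.05. The test was run on simulated data in which 200 of 13493 genes were changed. Of changes of 1, 2 and 3 in log2, 79.1%, 92.5% and 98.5% were found, and 3.74% of all calls were false. The simulation had far fewer changed genes than were called here and no common shift. It therefore cannot show how the test behaves in the setting of these data. Tables and plots were made with Python 3.11.15, pandas 2.3.3 and matplotlib 3.10.9.

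The members and all gene lists were chosen with earlier results of these data known. Named genes are the members, flanking genes called in a comparison and the nearest tested gene on each side, up to 4 and 2 called regulators per list with the largest difference for NUP98-NSD1 against NRASG12D and for NUP98-NSD1+NRASG12D against NUP98-NSD1, the genes most like the members, the transduced genes, markers and Hoxa9. Of the genes this rule gives, 2 are not reported here. Hoxb3os, Mir10a and Hoxb13 were added after their values were seen. The alternatives were a pseudocount of 0.1, no filter, scaling by the median ratio, quantile normalization, all 9 libraries in 1 fit, a replicate block and leaving out each library. A sum of the mast cell markers without Cpa3 was added after the values were seen.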

Additional observations from a re-analysis of the deposited data

How the results depend on the processing

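Directions of the members with a mean above 1 FPKM were kept against NRASG12D cells in all alternatives, and of 270 member values under alternatives 16 changed sign, all of them for members whose groups overlapped. Without NUP98-NSD1+NRASG12D replicate 1, the difference between both groups with the fusion turned to -0.22 for Hoxb7, -0.12 for Hoxb6, -0.05 for Hoxb4, -0.03 for Hoxb3 and -0.02 for Hoxb8. The difference of the summed Hoxb level from NRASG12D cells became 5.57 with NUP98-NSD1 alone and 5.30 with both vectors with a pseudocount of 0.1, and leaving out a library gave 4.34 to 4.63, 4.02 to 4.42 and, between both groups with the fusion, -0.45 to -0.05.

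In NUP98-NSD1 against NRASG12D cells 7036 genes were called, 80.9% of them higher, and the share was 49.3% with the median ratio and 46.7% with quantile normalization. With all 9 libraries in 1 fit, 3065 genes, 3 flanking genes and 9 regulators were called, and without the filter 16 regulators. Leaving out a library gave 4736 to 7948 genes, 6 to 7 flanking genes and 16 to 34 regulators. In NUP98-NSD1+NRASG12D against NRASG12D cells 5173 genes were called, 63.1% of them higher, and 50.9% and 41.8% with the same scalings. Without the filter, 4 flanking genes and 8 regulators were called, and leaving out a library gave 2941 to 6327, 4 to 7 and 9 to 25. Between both groups with the fusion 1162 genes were called. Without the filter there were 152 genes, 1 flanking gene and 1 regulator, with all libraries in 1 fit 2251 genes and 8 regulators, and with a pseudocount of 0.1 there were 1 flanking gene and 2 regulators. Both scalings gave 1 flanking gene. Leaving out a library gave 283 to 2509 genes, 1 to 4 flanking genes and 1 to 9 regulators. The causes were not tested.

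The deviations of same-numbered libraries correlated between -0.18 and 0.16. Such correlations cannot show whether same-numbered libraries were paired, and the labels do not say. The replicate block gave 6864, 4531 and 801 calls and left 1 flanking gene and 2 regulators called between both groups with the fusion. Of 47 calls of named genes, 22 were kept in all alternatives, and no direction of a call was reversed. Genes under 3 fragments could not be compared at this depth.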

Other observations

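The other Hox clusters give the scale of the Hoxb values. The 9 coding genes of the Hoxc cluster and the 9 of the Hoxd cluster included 0 that passed the filter, and each cluster summed to less than 1 FPKM in every library. The highest Hoxc sum was 0.861 FPKM, in NUP98-NSD1 cells, and the highest Hoxd sum 0.155 FPKM, in NRASG12D cells. Among the 4 clusters, genes past the filter were thus found in Hoxb and Hoxa, with 3 coding Hoxb genes and 6 Hoxa genes. The floor of 3 fragments was not worked out for Hoxc and Hoxd genes.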
